A study of Homo sapiens with 12 samples.

Results

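KLF genes encode Kruppel-like factors, transcription factors that bind CACCC and GC boxes in DNA through a shared block of zinc fingers. Expression of 10 of them, KLF2, KLF3, KLF4, KLF5, KLF6, KLF7, KLF9, KLF10, KLF11 and KLF13, was followed in 2 human cancer cell lines exposed to hydrogen peroxide (H2O2). The 10 genes were taken by symbol from a table of 23686 genes. They were selected on measured values, namely a higher level with H2O2 than without it in the colon cancer line HCT116, so their H2O2 values in that line are given as a description with no test. All 10 were above 1 TPM (transcript abundance corrected for gene length and scaled to the same total in each library) in every library and passed the filter on low values, which kept 13956 genes.

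The study sequenced RNA of HCT116 cells and of MDA-MB-231 cells, a line from a breast cancer. Each line had 3 groups of 2 libraries, which makes 12 libraries. The groups of each line were an antibody called anti-Hsp60N with H2O2, control IgG with H2O2, and IgG alone. H2O2 was given at 100 µM for 8 h. Every group thus carried an antibody or IgG by its treatment label, and no group had anti-Hsp60N without H2O2. The titles of the libraries with IgG alone call them WT and do not mention IgG. The lines were grown in different media, each with 10% fetal bovine serum, so line and medium differ together. Whether the 2 replicates in each group were cultured separately is not stated, and p-values therefore measure the spread between these libraries, which may be technical.

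Libraries of a group correlated at 0.994 to 0.996 across genes. Those of the same line but another group correlated at 0.985 to 0.995, so the ranges overlapped. From 12411 to 12653 genes per library were at 1 TPM or more. Sequencing depth is unknown, since TPM keeps none. HMOX1, the heme oxygenase induced by oxidants, averaged 174 ± 3.65 TPM (SD, n = 2) with IgG and H2O2 and 59.4 ± 2.37 TPM with IgG in HCT116, and 72.3 ± 2.72 and 29.7 ± 0.643 TPM in MDA-MB-231. The summed level of 6 epithelial markers was 4449 to 4750 TPM in HCT116 and 1331 to 1481 TPM in MDA-MB-231. In MDA-MB-231 it was nearly all KRT8 and KRT18. EPCAM there was at 22.6 to 25.3 TPM, CDH1 at 0.65 TPM or less, and ESRP1 and RAB25 at 0.12 TPM or less. The summed level of 5 mesenchymal markers was 11.4 to 12.4 TPM in HCT116 and 2515 to 2903 TPM in MDA-MB-231. That of 4 leukocyte markers was 20.4 to 25.4 TPM and 182.8 to 204 TPM, nearly all of it CD68, a lysosomal gene that is not specific to leukocytes, while PTPRC was at 0.08 TPM or less in every library.

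In the gut, KLF5 is known from dividing crypt cells and KLF4 from differentiated cells that have left the cell cycle. The family is usually sorted by the proteins its members recruit. KLF2, KLF4, KLF5, KLF6 and KLF7 act mostly as activators, KLF3 represses through CtBP proteins, and KLF9, KLF10, KLF11 and KLF13 bind the SIN3A corepressor. Many members respond quickly to signals such as growth factors, hormones, transforming growth factor beta or stress.

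Promoter sequence was at hand for 8 of the 10 genes, in 13 windows from 250 bases before to 50 bases after a start annotated by RefSeq on GRCh38.p14. KLF3 and KLF10 had none. The expression values were made on hg19, so these coordinates locate the sequences and not the reads. The 250 bases before a start are shown for KLF5 and KLF4, which differed most with H2O2 in HCT116 on the log2 scale, though not in TPM. They are also shown for KLF6, the most abundant member in MDA-MB-231, and for KLF11. KLF2 is shown because its libraries spread most among the well expressed members. Capitals mark CACCC boxes (CACCC), GC boxes (GGGCGG) and the cyclic AMP response element (TGACGTCA) on either strand, and adjoining matches run together.
KLF5 (chr13:73058755-73059004, plus strand): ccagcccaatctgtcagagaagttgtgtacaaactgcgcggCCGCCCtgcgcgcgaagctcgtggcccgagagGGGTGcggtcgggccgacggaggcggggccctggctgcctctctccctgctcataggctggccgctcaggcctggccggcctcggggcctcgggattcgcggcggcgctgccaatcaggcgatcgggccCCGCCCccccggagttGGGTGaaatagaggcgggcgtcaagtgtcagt
KLF4 (chr9:107489770-107490019, minus strand): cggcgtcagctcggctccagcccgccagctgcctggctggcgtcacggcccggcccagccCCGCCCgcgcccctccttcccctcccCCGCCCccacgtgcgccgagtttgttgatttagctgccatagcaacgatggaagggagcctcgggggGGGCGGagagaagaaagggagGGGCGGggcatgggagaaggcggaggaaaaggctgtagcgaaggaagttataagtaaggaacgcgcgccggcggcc
KLF6 (chr10:3785210-3785459, minus strand): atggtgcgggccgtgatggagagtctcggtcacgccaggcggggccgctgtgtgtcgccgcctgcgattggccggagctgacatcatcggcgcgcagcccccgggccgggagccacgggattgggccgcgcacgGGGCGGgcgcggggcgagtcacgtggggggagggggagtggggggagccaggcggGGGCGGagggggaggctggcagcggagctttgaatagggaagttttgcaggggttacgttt
KLF2 (chr19:16324576-16324825, plus strand): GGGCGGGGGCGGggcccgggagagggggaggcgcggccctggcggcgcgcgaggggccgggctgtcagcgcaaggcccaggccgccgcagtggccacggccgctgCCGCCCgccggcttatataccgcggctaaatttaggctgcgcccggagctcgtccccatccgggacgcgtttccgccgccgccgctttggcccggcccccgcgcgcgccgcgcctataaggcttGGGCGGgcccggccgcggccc
KLF11 (chr2:10043971-10044220, plus strand): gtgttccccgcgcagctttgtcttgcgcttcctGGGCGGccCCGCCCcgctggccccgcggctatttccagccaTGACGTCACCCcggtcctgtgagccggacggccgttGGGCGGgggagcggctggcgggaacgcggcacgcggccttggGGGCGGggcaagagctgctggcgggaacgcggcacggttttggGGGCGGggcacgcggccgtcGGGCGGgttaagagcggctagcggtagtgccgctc

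These stretches are rich in G and C, at 70.8% for KLF5, 69.2% for KLF4, 72.4% for KLF6, 80.0% for KLF2 and 74.4% for KLF11, where the median over all windows was 58.0%. Of the upstream stretches not shown, KLF9 held 32.4%, the other KLF5 window 40.8% and the KLF7 windows 41.6% to 72.0%. KLF13 and the other KLF11 window held 78.8%. GC boxes stood in 8 of the 13 windows of the 8 genes, against 45.0% of all 35116 windows of the same length. CACCC boxes, the letters that the family itself is known to bind, stood in 7 of 13 windows, against 59.9% of all windows. These were windows of KLF5, KLF7, KLF11 and KLF13, though not every window of KLF7 and KLF11 held one. CCAAT boxes stood in 6 of 13, against 34.6%. The cyclic AMP response element was present in 1 window, the KLF11 one shown, where it overlaps a CACCC box, and in 1.85% of all windows. The AP-1 element (TGANTCA) and the antioxidant response element core (TGACNNNGC) were in 0 of the 13 windows and in 7.71% and 13.3% of all. TATA boxes (TATAAA) were in 1 window, the KLF5 one not shown, against 11.5%. The ATF4-C/EBP element (TGATGNAA) was in 1 window, of KLF7, against 3.62%. No arrangement was shared by all 8 genes, and these matches are letters in the sequence, not sites shown to be bound.

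**Figure D1:**
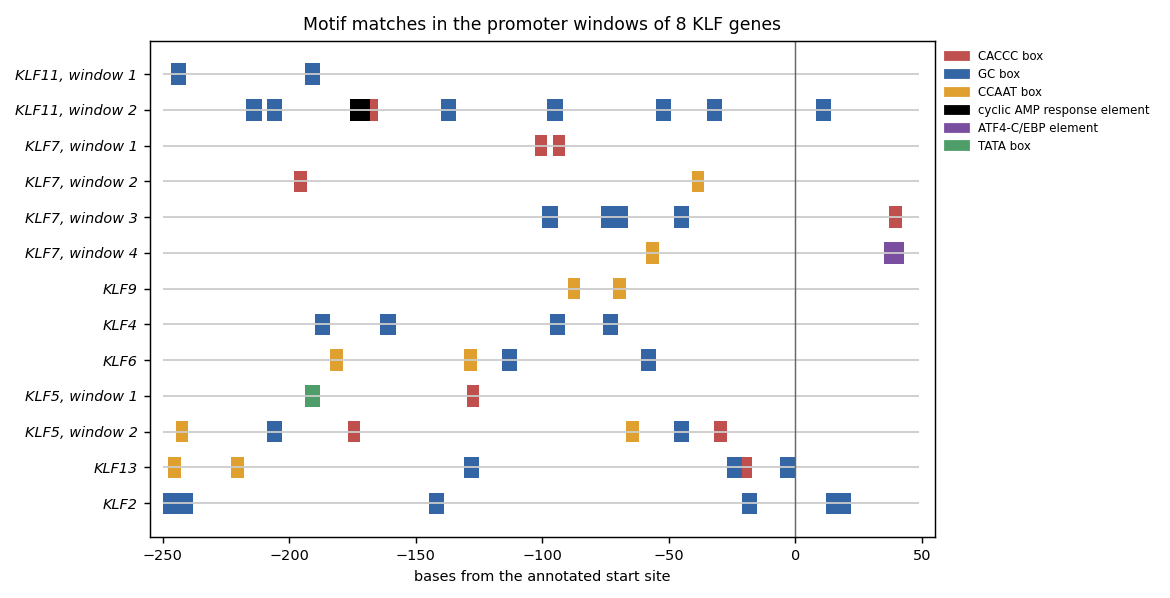
Positions of motif matches on either strand in the 13 promoter windows of 8 KLF genes, in bases from the annotated start site, 1 row per window, coloured by motif. GC boxes are in 8 of the 13 rows, and the KLF9 row has CCAAT boxes alone.

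In HCT116 all 10 members were higher with IgG and H2O2 than with IgG, which is the contrast they were picked for. The differences of log2(TPM + 1) ran between 0.25 and 1.03 with a median of 0.55, and the median of all genes was -0.01. Libraries of the groups did not overlap for any of the 10. This held for 29.1% of all genes in this direction and 33.6% in the other, and 15.4% of all genes were called higher by limma. At the edge of the choice, the lowest member was KLF10 at 0.25 (SE 0.08). KLF12, a family gene outside the set, stood above it at 0.31 (SE 0.09), so the set does not hold every KLF gene that was higher.

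Among the activators, KLF5, which drives proliferation in epithelial cells, stood at 77.4 and 79.8 TPM with anti-Hsp60N and H2O2, at 72.4 and 70.2 TPM with IgG and H2O2, and at 35.2 and 33.7 TPM with IgG in HCT116. Every library with H2O2 was far above the IgG libraries in KLF5 (log2 1.03, SE 0.08, for IgG with H2O2 over IgG). Both antibody libraries were also above both libraries with IgG and H2O2, a smaller difference that did not pass. KLF4, linked to growth arrest and to reprogramming, stood at 29.3 and 27.6 TPM with anti-Hsp60N and H2O2, at 25.99 and 28.2 TPM with IgG and H2O2, and at 13.9 and 13.4 TPM with IgG. Its groups with H2O2 overlapped each other and not the IgG group (log2 0.94, SE 0.08). KLF6, a growth-restraining factor that can activate CDKN1A, stood at 52.9 and 49.5 TPM with anti-Hsp60N and H2O2, at 45.6 and 48.7 TPM with IgG and H2O2, and at 32.9 and 27.5 TPM with IgG. The 3 groups of KLF6 did not overlap, with the gap to IgG wider than the one between the H2O2 groups (log2 0.63, SE 0.11).

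KLF2, best known from blood vessel lining and resting T cells, was the most uneven member. It stood at 30.6 and 36.1 TPM with anti-Hsp60N and H2O2, at 35.7 and 27.7 TPM with IgG and H2O2, and at 27.3 and 23.9 TPM with IgG. The lower H2O2 library was close to the higher IgG library (log2 0.29, SE 0.15). That value was 0.12 without H2O2 replicate 1 and 0.47 without H2O2 replicate 2. KLF7, known from neurons, was low throughout, at 3.93 and 3.33 TPM with anti-Hsp60N and H2O2, at 3.87 and 3.70 TPM with IgG and H2O2, and at 2.51 and 2.28 TPM with IgG (log2 0.50, SE 0.10). At such levels the added 1 holds the difference down, and with 0.1 added instead it was 0.64.

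KLF3, the CtBP-bound repressor, stood at 23.5 and 22.95 TPM with anti-Hsp60N and H2O2, at 21.6 and 21.1 TPM with IgG and H2O2, and at 14.3 and 13.05 TPM with IgG in HCT116 (log2 0.61, SE 0.07). Its 3 groups did not overlap.

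Of the SIN3A-binding members, KLF13, first described as an activator of the CCL5 gene in T cells, stood at 29.05 and 28.8 TPM with anti-Hsp60N and H2O2, at 29.4 and 30.55 TPM with IgG and H2O2, and at 17.4 and 19.2 TPM with IgG (log2 0.68, SE 0.06). It was the member that was lower in both antibody libraries than in either IgG library with H2O2. KLF10 and KLF11 are known as early genes of transforming growth factor beta. KLF10 was the most abundant of the 10, at 117 and 113 TPM with anti-Hsp60N and H2O2, at 101 and 102 TPM with IgG and H2O2, and at 92.2 and 79.2 TPM with IgG (log2 0.25, SE 0.08). Its IgG libraries differed from each other more than the nearer one did from H2O2, and the value was 0.14 without IgG replicate 2 and 0.36 without IgG replicate 1. KLF11 stood at 8.38 and 9.15 TPM with anti-Hsp60N and H2O2, at 8.13 and 7.27 TPM with IgG and H2O2, and at 5.13 and 5.52 TPM with IgG (log2 0.46, SE 0.08). KLF9, a gene switched on by glucocorticoid and thyroid hormone, stood at 4.85 and 4.35 TPM with anti-Hsp60N and H2O2, at 3.37 and 3.10 TPM with IgG and H2O2, and at 2.15 and 2.05 TPM with IgG (log2 0.45, SE 0.15). On the log2 scale, though not in TPM, KLF9 had the widest gap between the antibody group and the IgG group with H2O2. It was 0.40 and did not pass (limma adjusted p = 0.92).

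**Figure D2:**
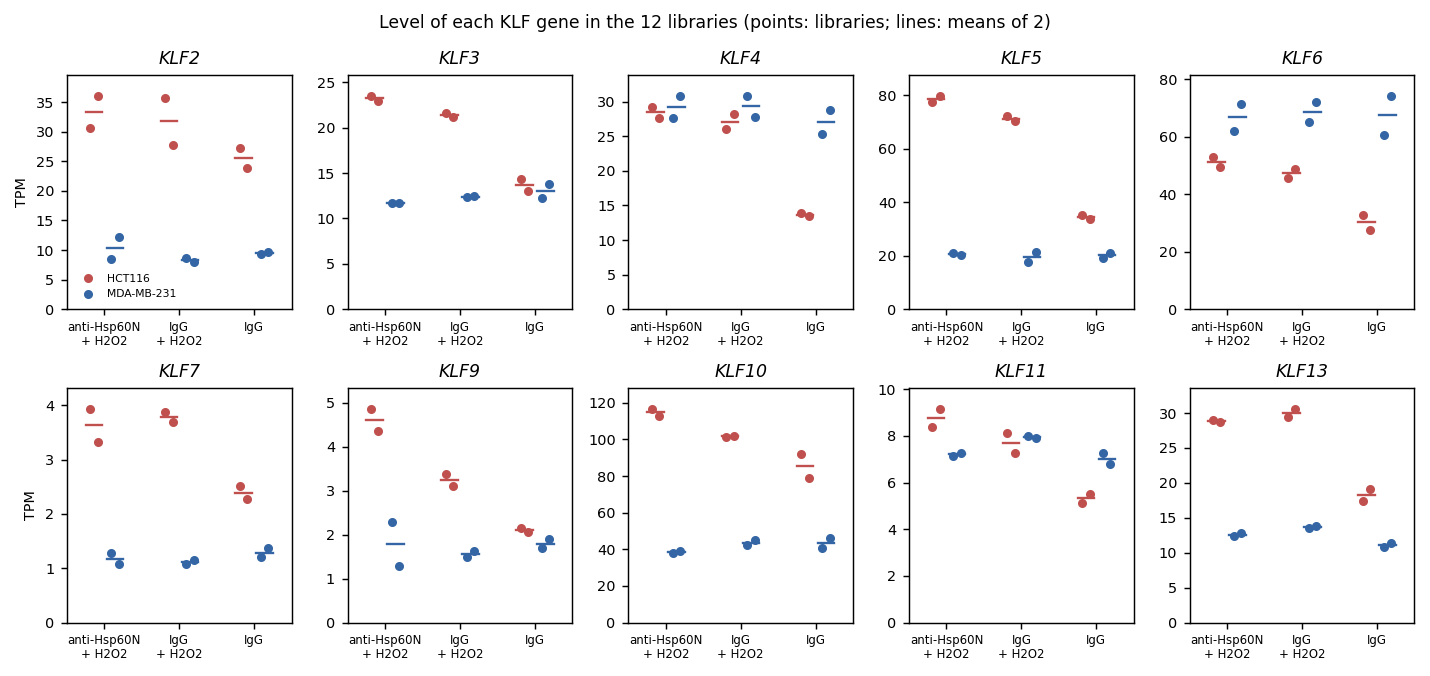
TPM of each of the 10 KLF genes in the 12 libraries by treatment, with HCT116 in red and MDA-MB-231 in blue, points for libraries and lines for the means of 2. In HCT116 the IgG libraries are the lowest for every gene, while in MDA-MB-231 the 3 groups lie close together.

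The anti-Hsp60N libraries of HCT116 took no part in choosing the genes, although the IgG libraries they are set against did. The members were chosen for being low in those IgG libraries. The antibody group also had H2O2, and limma called only 3 of all genes between it and IgG with H2O2. Higher values are therefore favoured by the choice, and the counts and p-values below are not independent of it. With anti-Hsp60N and H2O2, 9 of the 10 members were called higher than with IgG and 0 lower, against 16.8% and 17.5% of all genes, 34.3% in all (limma, Benjamini-Hochberg adjusted p under 0.05). Libraries did not overlap for 10 of 10 members, all higher, as for 32.0% of all genes higher and 34.0% lower. The median of the members was 0.68, and that of all genes was -0.0008. KLF5 had a log2 difference of 1.17 (95% interval 0.99 to 1.35, limma adjusted p = 3.00e-06) and KLF4 one of 1.01 (0.82 to 1.19, limma adjusted p = 1.13e-05). KLF9 followed at 0.85 (0.53 to 1.17), KLF6 at 0.75 (0.50 to 0.99), KLF3 at 0.72 (0.57 to 0.88), KLF13 at 0.63 (0.49 to 0.78) and KLF11 at 0.63 (0.45 to 0.80), with limma adjusted p of 0.00142 or less. KLF7 at 0.45 (0.22 to 0.67, limma adjusted p = 0.00654) and KLF10 at 0.42 (0.25 to 0.59, limma adjusted p = 0.0022) were the called members with the smallest differences, and the call of KLF7 was lost without HCT116 antibody replicate 1 (limma adjusted p = 0.0599). KLF2 had a difference of 0.37 (0.03 to 0.71, limma adjusted p = 0.0866) and did not pass. It passed without either MDA-MB-231 antibody library, at 0.0411 and 0.0414.

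Between anti-Hsp60N with H2O2 and IgG with H2O2 in HCT116, 0 of 10 members passed (limma, 2 at an unadjusted p under 0.05), and 0.0215% of all genes did, 0.00717% higher and 0.0143% lower. This share is 3 genes, and it was 7 without HCT116 H2O2 replicate 2. The IgG libraries with H2O2 were among those that chose the members. KLF9 had the largest difference, 0.40 (95% interval 0.08 to 0.72, limma adjusted p = 0.92), and KLF10 had 0.17 (0.0023 to 0.34, limma adjusted p = 0.92). Libraries did not overlap for 6 members that were higher with the antibody, KLF3, KLF5, KLF6, KLF9, KLF10 and KLF11, and for KLF13, which was lower, against 21.9% of all genes higher and 15.5% lower. The intervals of KLF4 (-0.11 to 0.25) and KLF5 (-0.04 to 0.32) leave room for small differences, so the data do not show that levels were equal.

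MDA-MB-231, whose libraries had no part in the choice, gave 0 calls among the 10 members with H2O2 (limma, 1 at an unadjusted p under 0.05), against 2.66% of all genes, of which 1.3% were called higher and 1.36% lower. The split over all genes was 181 higher and 190 lower, while scaling by median of ratios gave 154 and 279. The members' median was -0.02, with 5 above and 5 below 0, and that of all genes was 0.03. KLF13 was nearest to the threshold. It stood at 13.6 and 13.8 TPM with IgG and H2O2, against 10.8 and 11.5 TPM with IgG, a log2 difference of 0.28 (95% interval 0.14 to 0.42, limma adjusted p = 0.0502). KLF13 passed after median-of-ratios scaling, with the filter at a mean of 5 TPM, and without either HCT116 IgG library, at adjusted p between 0.0374 and 0.0444 (limma). KLF11 also had both H2O2 libraries, at 8.01 and 7.92 TPM, above both IgG libraries, at 7.26 and 6.79 TPM (log2 0.16, 95% interval -0.02 to 0.34, limma adjusted p = 0.351).

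For KLF5, KLF4, KLF6, KLF3 and KLF10 the libraries with IgG and H2O2 overlapped those with IgG in MDA-MB-231. KLF5 stood at 21.2 and 20.4 TPM with anti-Hsp60N and H2O2, at 17.7 and 21.4 TPM with IgG and H2O2, and at 19.2 and 21.1 TPM with IgG. All 3 groups overlapped, and the 95% interval of the H2O2 difference was -0.22 to 0.13. KLF4 stood at 27.7 and 30.8 TPM with anti-Hsp60N and H2O2, at 30.8 and 27.8 TPM with IgG and H2O2, and at 25.4 and 28.7 TPM with IgG, again with overlap (interval -0.07 to 0.29). KLF6 stood at 62.0 and 71.4 TPM with anti-Hsp60N and H2O2, at 65.0 and 71.9 TPM with IgG and H2O2, and at 60.6 and 74.1 TPM with IgG (interval -0.22 to 0.27). KLF6 varied more between the 2 IgG libraries than between group means. KLF3 stood at 11.75 and 11.7 TPM with anti-Hsp60N and H2O2, at 12.4 and 12.4 TPM with IgG and H2O2, and at 12.2 and 13.8 TPM with IgG. KLF10 stood at 37.8 and 38.9 TPM with anti-Hsp60N and H2O2, at 42.2 and 45.0 TPM with IgG and H2O2, and at 40.8 and 46.4 TPM with IgG. Thus the antibody libraries were the lowest for both KLF3 and KLF10 in this line.

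The remaining members were lower with H2O2 in both MDA-MB-231 libraries, none past the threshold. KLF2 stood at 8.59 and 8.03 TPM with IgG and H2O2, against 9.40 and 9.63 TPM with IgG (log2 -0.18, 95% interval -0.51 to 0.16). KLF7 stood at 1.08 and 1.16 TPM, against 1.2 and 1.37 TPM (log2 -0.11, interval -0.33 to 0.12). KLF9 stood at 1.48 and 1.62 TPM, against 1.69 and 1.90 TPM (log2 -0.13, interval -0.45 to 0.19). In the antibody libraries KLF2 stood at 8.52 and 12.1 TPM, KLF7 at 1.28 and 1.07 TPM, KLF9 at 2.29 and 1.29 TPM, KLF11 at 7.15 and 7.28 TPM and KLF13 at 12.3 and 12.8 TPM. Libraries did not overlap for 2 members higher with H2O2 (KLF11 and KLF13) and 3 lower, against 30.4% and 17.3% of all genes.

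With the antibody in MDA-MB-231, 0 of 10 members passed against IgG with H2O2 (limma, 1 at an unadjusted p under 0.05, with 0.0143% of all genes called). Against IgG the count was also 0 (limma, 2 at an unadjusted p under 0.05, with 3.4% of all genes called, 1.5% higher and 1.9% lower). Libraries did not overlap for 4 members lower with the antibody than with IgG and H2O2, KLF3, KLF10, KLF11 and KLF13, and 0 higher, against 31.3% and 16.8% of all genes. Against IgG they did not overlap for KLF13, which was higher, and for KLF3 and KLF10, which were lower, against 24.3% and 22.1% of all genes. KLF10 had the lowest value in both, -0.18 (SE 0.08, limma adjusted p = 0.357) and -0.18 (SE 0.08, limma adjusted p = 0.241). KLF13 had 0.16 against IgG (SE 0.06, limma adjusted p = 0.203). These comparisons share libraries with each other and with that of H2O2 and IgG.

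**Figure D3:**
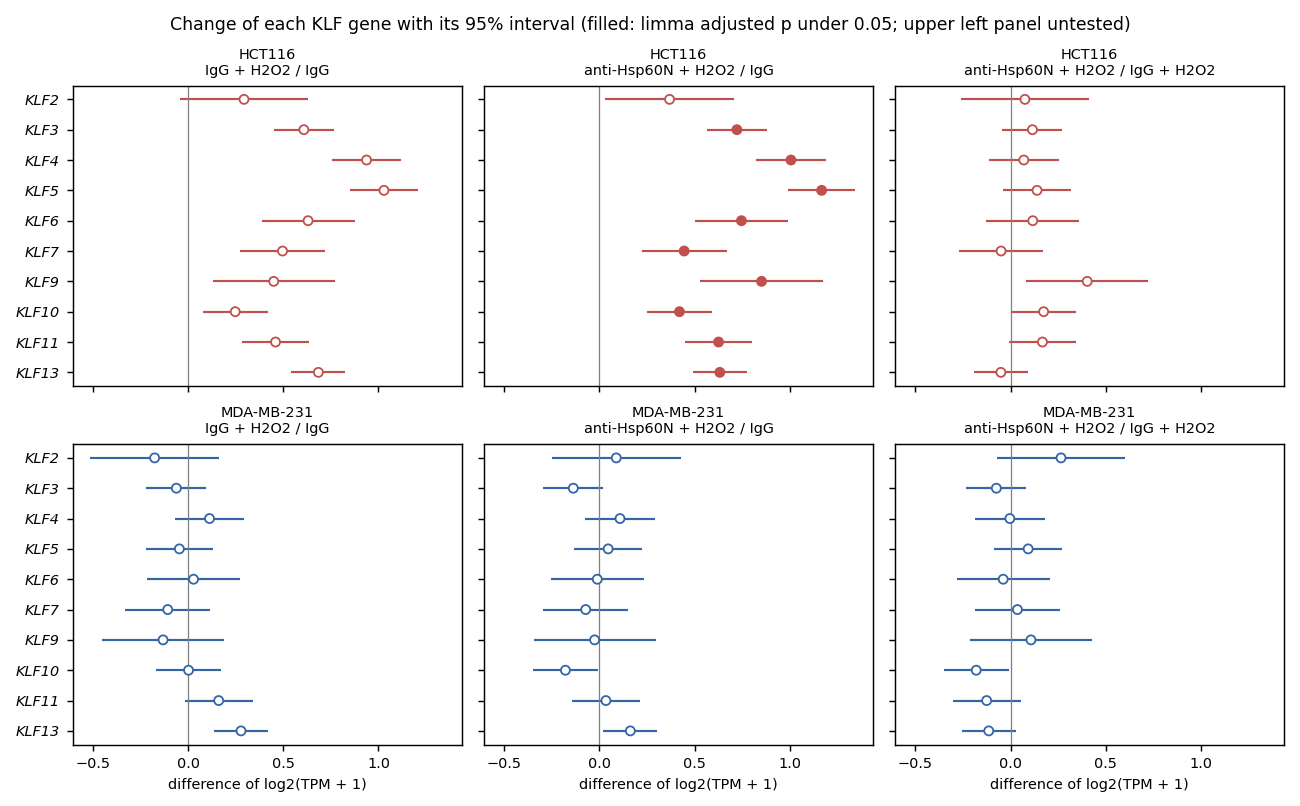
Difference of log2(TPM + 1) of the 10 KLF genes with 95% intervals in 6 comparisons, HCT116 above and MDA-MB-231 below, with filled points past the limma threshold and the upper left panel untested because it chose the genes. In the comparison of anti-Hsp60N and H2O2 with IgG, 9 of 10 points are filled for HCT116 and 0 for MDA-MB-231. The HCT116 IgG libraries took part in choosing the genes, which favours higher values there.

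Whether the lines differ was tested on the change under anti-Hsp60N with H2O2 against IgG, a comparison added after the values were seen. It leaves out the HCT116 libraries with IgG and H2O2 but shares the IgG ones with the choice of genes. The members were chosen for being low in those IgG libraries, so a larger change in HCT116 is favoured by the choice. The counts and p-values below therefore do not settle whether the lines differ in these genes. The change was larger in HCT116 than in MDA-MB-231 for 9 of 10 members and smaller for 0, against 10.9% and 10.3% of all genes (limma adjusted p under 0.05). KLF5 differed most between lines, by 1.12 (SE 0.11, limma adjusted p = 0.000127), and KLF2 by 0.28 (SE 0.22, limma adjusted p = 0.387), which did not pass. KLF7 (0.52, limma adjusted p = 0.0269) lost the call without MDA-MB-231 IgG replicate 2, MDA-MB-231 antibody replicate 2, HCT116 antibody replicate 1 or HCT116 IgG replicate 2 (adjusted p 0.0753 to 0.0991 with limma). KLF9 (0.88, limma adjusted p = 0.0134) lost it without MDA-MB-231 IgG replicate 2 or HCT116 antibody replicate 1 (0.0502 and 0.0511). For H2O2 with IgG the same difference had a median of 0.59 over the members, given without a test. The change from IgG with H2O2 to the antibody had no member past the threshold in its difference between lines (0 called with limma, 2 at an unadjusted p under 0.05, 0.0287% of all genes called).

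Under IgG all 10 members were present in both lines, and their order by level differed between the lines. The HCT116 libraries with IgG are among those that chose the members, for being low there. KLF10, KLF5 and KLF6, in that order, led in HCT116, at 85.7, 34.4 and 30.2 TPM, and KLF6, KLF10 and KLF4 led in MDA-MB-231, at 67.4, 43.6 and 27.1 TPM. In HCT116 the libraries of neighbours in this order were separate except for KLF3 and KLF4 at 13.7 TPM each. In MDA-MB-231 no neighbours overlapped. The lowest members were KLF9 at 2.10 TPM in HCT116 and KLF7 at 1.29 TPM in MDA-MB-231. Of the 10, 5 were higher and 3 lower in HCT116, against 45.5% and 37.3% of all genes, 82.8% in all (limma adjusted p under 0.05), so the share called was near that of all genes. Scaling by median of ratios turned the split of all genes, which was 6348 higher and 5209 lower, to 5701 higher and 5901 lower. Libraries did not overlap for 6 members higher and 3 lower, against 49.2% and 40.4% of all genes. The higher ones were KLF2 (log2 1.33, SE 0.15), KLF10 (0.96, SE 0.08), KLF5 (0.75, SE 0.08), KLF13 (0.67, SE 0.06) and KLF7 (0.57, SE 0.10). KLF6 (-1.13, SE 0.11), KLF4 (-0.93, SE 0.08) and KLF11 (-0.34, SE 0.08) were lower, while KLF3 (0.07, SE 0.07) and KLF9 (0.15, SE 0.15) did not pass. The median of all genes was 0.11 here and -0.01 with the libraries scaled by median of ratios, where each of the 10 kept its side of the threshold. With H2O2 the KLF4 level of HCT116 came to 25.99 and 28.2 TPM, inside the range of the MDA-MB-231 libraries, 25.4 to 30.8 TPM.

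Summed over the 10 genes, HCT116 held 375 ± 1.42 TPM with anti-Hsp60N and H2O2, 345 ± 3.49 TPM with IgG and H2O2, and 231 ± 16.5 TPM with IgG (SD, n = 2). MDA-MB-231 held 200 ± 11.2, 206 ± 7.21 and 202 ± 18.9 TPM. KLF5 made up 20.6% and 21.3% of this sum in the antibody libraries and 20.8% and 20.5% in the IgG libraries with H2O2 of HCT116, against 14.5% and 15.3% with IgG. The share of KLF10 was lower with H2O2, at 31.0% and 30.2% with the antibody and 29.1% and 29.8% with IgG and H2O2, against 37.9% and 36.0% with IgG. In MDA-MB-231 KLF6 made up 32.1% to 34.4% in every library. Since these are bulk samples, fewer cells that express a gene and less RNA per cell cannot be told apart.

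**Figure D4:**
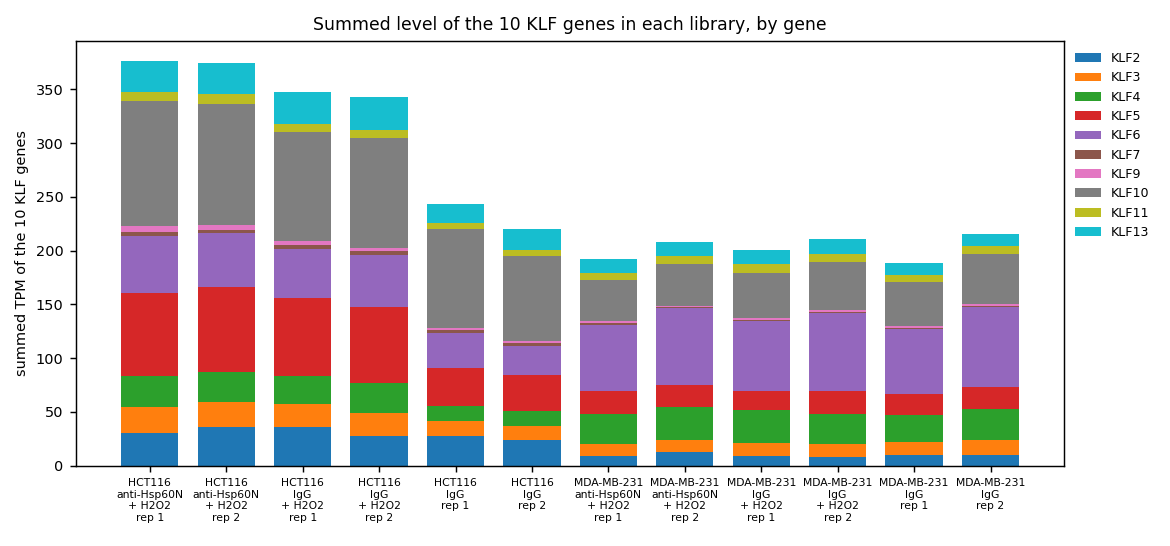
Summed TPM of the 10 KLF genes in each of the 12 libraries, stacked by gene. The HCT116 libraries with H2O2 reach 343 to 376 TPM, above the HCT116 libraries with IgG at 243 and 220 TPM and all MDA-MB-231 libraries.

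Other KLF genes were mostly low, and 4 of 7 listed passed the filter on low values. KLF12, a repressor that binds CtBP like KLF3, stood at 2.32 and 2.2 TPM with anti-Hsp60N and H2O2, at 1.69 and 1.96 TPM with IgG and H2O2, and at 1.40 and 1.16 TPM with IgG in HCT116. It rose with anti-Hsp60N and H2O2 over IgG (log2 0.52, SE 0.09, limma adjusted p = 0.00208), and in MDA-MB-231 the same difference was -0.11 (SE 0.09, limma adjusted p = 0.562). KLF16, another SIN3A-binding member, had -0.05 (95% interval -0.27 to 0.16) and KLF15 0.12 (-0.07 to 0.32) in HCT116. KLF17 was listed at 0 in 5 of the 6 HCT116 libraries and at 0.74 to 1.67 TPM in MDA-MB-231. KLF1, KLF8 and KLF14 did not pass the filter.

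SP genes encode relatives with the same kind of finger block, and 6 of 9 passed the filter. Of these 0 were called with anti-Hsp60N and H2O2 over IgG in either line (limma, 2 in HCT116 and 1 in MDA-MB-231 at an unadjusted p under 0.05), where 34.3% of all genes were called in HCT116 and 3.4% in MDA-MB-231, with medians of 0.11 in HCT116 and 0.10 in MDA-MB-231. SP1, the ubiquitous founder of the group, had 0.12 (SE 0.06) and SP3 0.18 (SE 0.07) in HCT116, while SP5, a target of Wnt signalling, had -0.37 (SE 0.14).

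**Figure D5:**
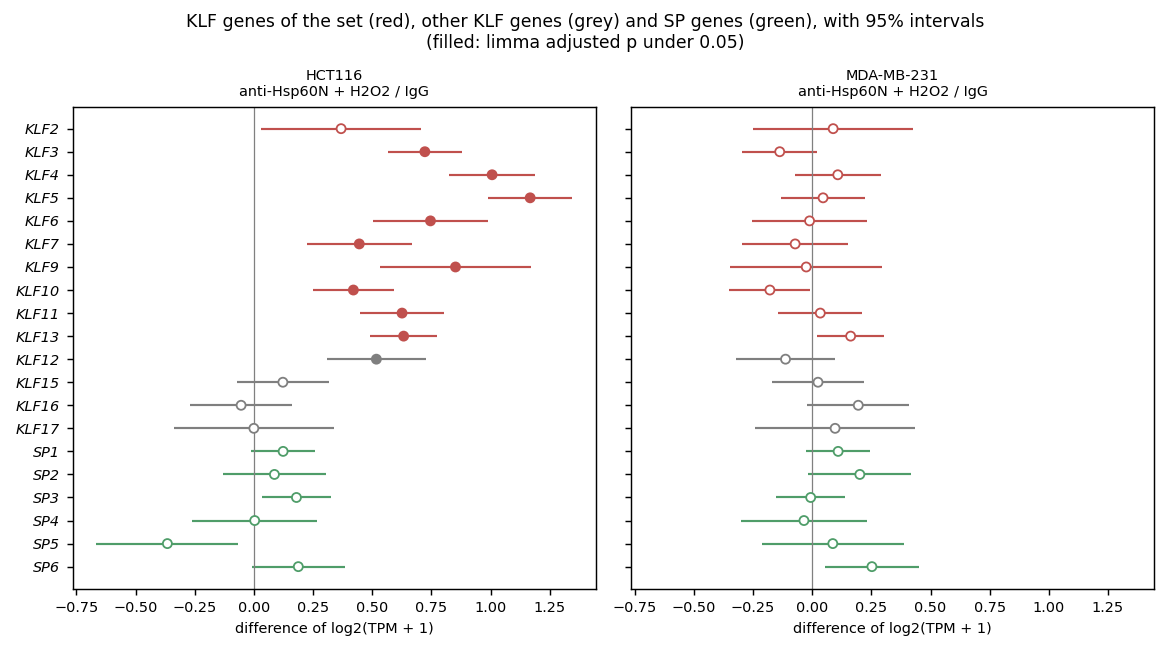
Difference of log2(TPM + 1) with 95% intervals for anti-Hsp60N and H2O2 over IgG, for the 10 KLF genes of the set in red, 4 other KLF genes in grey and 6 SP genes in green, with filled points past the limma threshold. In HCT116, 9 red and 1 grey point are filled, and 0 in MDA-MB-231. The HCT116 IgG libraries took part in choosing the red genes, which favours higher values for them.

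Genes around the family were taken from lists of known regulators, partners and targets. For anti-Hsp60N with H2O2 over IgG in HCT116, 8 of 16 upstream regulators were higher and 1 lower, with a median of 0.25, where 16.8% of all genes were higher and 17.5% lower. MEF2A (log2 0.51) and MEF2D (0.48), factors that act on the KLF2 and KLF4 genes downstream of the kinase ERK5, were higher, and MEF2C (-0.46) was lower. MAPK7, the gene of ERK5 (0.18, limma adjusted p = 0.219), and MAP2K5 (0.28, limma adjusted p = 0.0571) did not pass. NFE2L2, which encodes NRF2, an oxidant-responsive factor known to act on the KLF9 gene, was higher (0.43). NR3C1, the glucocorticoid receptor (0.42), and 3 genes of transforming growth factor beta signalling, SMAD3 (0.56), SMAD4 (0.33) and TGFBR1 (0.23), were higher as well. EGR1, an early response gene, had 0.08, short of the threshold. In MDA-MB-231 the same list had 0 calls and a median of -0.04 (limma, 5 genes at an unadjusted p under 0.05). Only 3.4% of all genes were called in that line, against 34.3% in HCT116.

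Genes that act in the breakdown of KLF proteins gave 5 of 8 higher and 0 lower in HCT116, with a median of 0.40, against 16.8% and 17.5% of all genes. They were VHL (0.61), which targets KLF4, FBXO32 (0.47), FBXW7 (0.44), a ubiquitin ligase subunit for KLF5 and KLF2, ITCH (0.41) and SMURF2 (0.39). Among 13 corepressors and coactivators, 2 were higher, NCOR1 (0.36) and CTBP2 (0.18), and 3 lower, KDM1A (-0.33), HDAC3 (-0.21) and HDAC1 (-0.15), with a median of 0.03, which is near the 16.8% and 17.5% of all genes. SIN3A had 0.03 and did not pass. Neither list had a call in MDA-MB-231 with the antibody and H2O2 over IgG, where 3.4% of all genes were called. The counts were 0 of 8 and 0 of 13 (limma, with 1 and 2 genes at an unadjusted p under 0.05).

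Of 17 genes known as KLF targets that passed the filter, 4 were higher and 3 lower with anti-Hsp60N and H2O2 in HCT116, with a median of 0.04. These counts are near the shares of all genes, 16.8% higher and 17.5% lower. CDKN1A, the cell cycle inhibitor p21 that KLF4 and KLF6 can activate, stood at 591 and 615 TPM with anti-Hsp60N and H2O2, against 186 and 195 TPM with IgG (log2 1.66, SE 0.04, limma adjusted p = 2.61e-09). PLAU, the urokinase gene and a target of KLF6, stood at 51.1 and 50.03 TPM, against 22.4 and 19.4 TPM (log2 1.24). PDGFA, a growth factor gene activated by KLF5 in muscle of blood vessels, stood at 24.9 and 26.7 TPM, against 14.2 and 14.3 TPM (log2 0.81). TGFBR1 is on this list too. The 3 lower genes were CCNB1, which encodes cyclin B1 and is repressed by KLF4 (log2 -0.72), BIRC5, which encodes survivin and is activated by KLF5 (-0.65), and FGFBP1, another gene activated by KLF5 (-0.85). Among the genes named here as activated by KLF5, PDGFA was higher, and BIRC5 and FGFBP1 were lower. Whether KLF5 acted on them in these cells was not tested. SMAD7, repressed by KLF10 and KLF11, had 0.19 and did not pass, and TXNRD2, repressed by KLF9, also fell short, at -0.28 (limma adjusted p = 0.0535). In MDA-MB-231, 1 of the 17 was higher with anti-Hsp60N and H2O2 over IgG, CDKN1A (0.66). There 2 were lower, CCNB1 (-1.14) and BIRC5 (-0.41). Of all genes, 1.5% were called higher and 1.9% lower in that comparison, 3.4% in all, and 0 of the 10 members passed. CDKN1A, CCNB1 and BIRC5 also passed in MDA-MB-231 with IgG and H2O2 over IgG, at 0.64, -1.05 and -0.36. In that comparison 2.66% of all genes were called.

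After each line's mean was taken out, the profiles of the members over the 12 libraries were alike, which the choice of genes in HCT116 partly sets. KLF5 and KLF3 had r = 0.96 with each other, KLF4 had 0.95 with KLF5, and KLF13 0.94 with KLF4, while KLF2 reached at most 0.60 with any member. Out of 10562 genes of at least 5 TPM on average outside the family, IRF2BP2 was most like KLF5 (Pearson r = 0.99), OCLN, a tight junction gene, most like KLF3 (0.99), and GFPT1, the entry enzyme of hexosamine synthesis, most like KLF4 (0.99). KIAA0355 was most like KLF13 (0.99), ASAP1 most like KLF6 (0.98), ZNF623 most like KLF11 (0.98), C4orf3 most like KLF10 (0.96), KIAA1609 most like KLF7 (0.96), ZNF136 most like KLF9 (0.93) and ZNF446 most like KLF2 (0.90). IRF2BP2 stood at 27.6 and 27.7 TPM with anti-Hsp60N and H2O2, at 25.9 and 25.6 TPM with IgG and H2O2, and at 16.5 and 15.0 TPM with IgG in HCT116, against 39.0 to 44.5 TPM in MDA-MB-231. These correlations rest on 12 libraries, in which replicates share a treatment, and are given as a description.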

How the data were processed

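RNA was sequenced in 12 libraries of 2 cell lines and 3 treatments. The authors deposited TPM per gene symbol, scaled to gene length and library total, to 2 decimals. Per the submitters' processing notes, bcl2fastq 2.20, STAR, RSEM and hg19 were used; the annotation, the strand setting and the tools' roles were not given in those notes. Libraries were matched to columns by their description, and 0 columns were left unmatched. Depth is unknown, so no counting interval is given.

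Genes with at least 1 TPM in at least 2 libraries were kept. Tests ran on log2(TPM + 1) in R 4.3.3, by limma 3.58.1 with its trend option, and this scale understates changes of low genes. They were two-sided, on 6 group means, with 6 residual and 4.63 prior degrees of freedom, and with Benjamini-Hochberg adjustment over all genes kept. The threshold was an adjusted p under 0.05. The procedure was tested on simulated data. The members, lists and tests were chosen with earlier results of these data known, and no p is adjusted over a list alone. All members and, in treatment comparisons other than the choosing one, list genes past the threshold are named, except 1 that is not reported here. List genes that differed between lines are not reported here, apart from KLF genes. The most alike gene is the one of highest Pearson r. Motifs were searched on both strands of RefSeq promoter windows with Python 3.11.15, and plots used matplotlib 3.10.9. Alternatives were another pseudocount, 2 other filters, median-of-ratios scaling, a replicate block, single-line fits and leaving out each library.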

Additional observations from a re-analysis of the deposited data

Results flagged for a closer look

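The change under anti-Hsp60N with H2O2 against IgG differed between the lines for 9 genes, by the test of that difference within limma, and was larger in HCT116 in each, where 10.9% of all genes were larger and 10.3% smaller. The test uses the HCT116 libraries with IgG, which took part in choosing the genes for being low there, so a larger change in HCT116 is favoured by the choice. The log2 differences between lines were 1.12 for KLF5, 0.90 for KLF4, 0.88 for KLF9, 0.86 for KLF3, 0.76 for KLF6, 0.60 for KLF10, 0.59 for KLF11, 0.52 for KLF7 and 0.47 for KLF13. The call was lost without 1 library in 4 cases for KLF7 (limma adjusted p 0.0753 to 0.0991) and in 2 cases for KLF9 (0.0502 and 0.0511).

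Under H2O2 with IgG against IgG, KLF2, KLF7 and KLF9 were higher in both HCT116 libraries and lower in both MDA-MB-231 libraries than in any IgG library of the same line. The log2 difference between lines was 0.47 for KLF2, 0.60 for KLF7 and 0.58 for KLF9. This difference was not tested, since it holds the contrast that chose the genes.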

How the results depend on the processing

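The count of called members for anti-Hsp60N with H2O2 over IgG in HCT116 was 9, and 8 to 10 when any 1 library was left out. It was 7 with a mean of at least 5 TPM, a filter that removes KLF7 and KLF9, and 9 under each of the other alternatives run. For the difference of this change between lines it was 9, 7 with that filter and 7 to 9 without any 1 library, and for the lines under IgG it was 8, 7 with that filter and 8 without any 1 library. For H2O2 over IgG in MDA-MB-231 the count of 0 became 1, KLF13, with a mean of at least 5 TPM, with median-of-ratios scaling and without either HCT116 IgG library, a range of 0 to 1. The cause was not tested. The counts for the antibody over IgG with H2O2 in each line, for its difference between lines, and for the antibody over IgG in MDA-MB-231 were 0 in every alternative run. The median of the members for H2O2 over IgG in HCT116, 0.55, was 0.64 with a pseudocount of 0.1, which by construction widens differences of low genes, and 0.50 to 0.58 without any 1 library. No called value changed sign, but 32 of 1740 gene values did, in 20 results that passed the threshold in no setting. Scaling by median of ratios gave -0.0032 for KLF6 and -0.029 for KLF10 with H2O2 over IgG in MDA-MB-231, 0.017 for KLF4 with the antibody over IgG with H2O2 in that line, and -0.054 for KLF3 between the lines under IgG. Leaving out 1 library turned the sign in the following, given as the range of log2 differences. For the antibody over IgG with H2O2 in HCT116 it was KLF2 -0.10 to 0.25 and KLF7 -0.14 to 0.043. For the same in MDA-MB-231 it was KLF4 -0.077 to 0.069, KLF5 -0.037 to 0.22, KLF6 -0.14 to 0.061, KLF7 -0.034 to 0.11 and KLF9 -0.15 to 0.37. For its difference between lines it was KLF2 -0.42 to 0.042, KLF5 -0.082 to 0.18 and KLF7 -0.18 to 0.0078. For the antibody over IgG in MDA-MB-231 it was KLF2 -0.14 to 0.32, KLF5 -0.020 to 0.11, KLF6 -0.15 to 0.13, KLF9 -0.29 to 0.24 and KLF11 -0.0079 to 0.077. For H2O2 over IgG in MDA-MB-231 it was KLF3 -0.14 to 0.018, KLF5 -0.17 to 0.083, KLF6 -0.12 to 0.17 and KLF10 -0.088 to 0.092. For the lines under IgG it was KLF3 -0.011 to 0.15. Calls over all genes moved by over 1.5 times without some libraries. For H2O2 over IgG in MDA-MB-231 they were 371, but 86 with that line fitted alone, 122 and 116 without its H2O2 replicate 1 or 2, and 167 and 184 without its IgG replicate 1 or 2. For anti-Hsp60N with H2O2 over IgG in that line they were 475, but 101 with the line fitted alone, 301 and 145 without its IgG replicate 1 or 2, and 163 without its antibody replicate 2. In HCT116 they were 4792, but 2953 without antibody replicate 2, and for H2O2 over IgG 4592, but 3000 without H2O2 replicate 2. Calls for the antibody over IgG with H2O2 were few, 3 in HCT116 (1 to 7) and 2 in MDA-MB-231 (0 to 3), and 4 for its difference between lines (0 to 6). For the difference of the antibody-over-IgG change between lines they were 2966, but 1864 without MDA-MB-231 antibody replicate 2 and 1906 and 1886 without HCT116 antibody replicate 1 or 2. Single-line fits give no comparison between lines. Libraries with the same replicate number did not deviate together throughout (r of deviations -0.13 to 0.06 in HCT116 and 0.01 to 0.16 in MDA-MB-231), and with a replicate block the counts of called members were 9 for anti-Hsp60N with H2O2 over IgG in HCT116 and 0 for H2O2 over IgG in MDA-MB-231.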
